A study of Mus musculus with 6 samples.

Results

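The genes described are 10 targets of the hypoxia-inducible factors (HIF) that are not glycolytic enzymes: Slc2a1, Slc16a3, Pdk1, Car9, Vegfa, Adm, Ndrg1, Mxi1, Egln3 and Bnip3. They were chosen by symbol. This choice, and that of the gene lists and background level used below, was made with earlier results of these data known. Of the 10 genes, 9 had a probe annotated to them, 1 probe each, among 16384 named genes on the array. All 9 probes had a value on every array and were tested. No value is given for Bnip3, for which no annotated probe was found. The samples were cultured neural stem cells of newborn (postnatal day 0) C57BL6 mouse brain, kept untreated in DMEM/F12 medium to which bFGF, EGF and heparin had been added. Of the 6 arrays, 2 were labelled Ecrg4 homozygous (homo), 2 heterozygous (hetero) and 2 wild type (wt). All cultures shared the strain, the age and the medium. How the Ecrg4 allele was altered, the oxygen level of the cultures, and whether the arrays of a label came from separate animals or cultures were not given in the sources used here. The p-values thus cover array-to-array spread alone, and that spread could be technical.

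HIF is a dimer of an oxygen-regulated alpha subunit and the constitutive beta subunit ARNT. In oxygenated cells prolyl hydroxylases of the EGLN family mark the alpha subunit, the von Hippel-Lindau protein binds it, and it is degraded. When oxygen falls the alpha subunit persists, and the dimer binds a short core sequence, ACGTG or GCGTG, near its targets. Those targets bring glucose into the cell, export lactate, keep pyruvate from the citric acid cycle, signal to blood vessels and feed back on HIF itself. Neural stem cells are known for a strongly glycolytic metabolism and for residing in tissue of low oxygen.

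The RefSeq promoter windows (GRCm38.p6, 250 bases before to 50 after an annotated start) show where that core lies. The motifs searched were ACGTG and GCGTG on both strands, so CACGT and CACGC on the strand shown; CACGTG contains a match on each strand. Windows were found for 9 of the 10 genes (not Ndrg1), and all 9 held a match in at least 1 window. Over all annotated genes 46.7% did so. In the 100 bases just before a start, 7 of the 9 genes held a match, and so did 24.5% of all genes. The genes are known HIF targets, so the shares are a description of the chosen list. The lines below give the 100 bases before the start for 6 measured genes, 5' to 3' on the gene's strand, with matches in capitals. They are shown because the same core precedes genes that were lower in the homozygous arrays, a gene that was higher (Adm) and a gene that stayed at background (Car9).

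Slc2a1 (chr4:119108645-119108744, + strand): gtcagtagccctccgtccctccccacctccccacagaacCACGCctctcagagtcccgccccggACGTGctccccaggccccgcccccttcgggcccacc
Slc16a3 (chr11:120948967-120949066, + strand): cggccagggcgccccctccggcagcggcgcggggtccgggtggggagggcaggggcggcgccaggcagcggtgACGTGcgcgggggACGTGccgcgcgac
Pdk1 (chr2:71873124-71873223, + strand): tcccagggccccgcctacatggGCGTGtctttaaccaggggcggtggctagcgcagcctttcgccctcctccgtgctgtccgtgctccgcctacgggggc
Mxi1 (chr19:53329313-53329412, + strand): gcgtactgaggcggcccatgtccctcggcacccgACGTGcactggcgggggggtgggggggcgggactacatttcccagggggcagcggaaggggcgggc
Adm (chr7:110627557-110627656, + strand): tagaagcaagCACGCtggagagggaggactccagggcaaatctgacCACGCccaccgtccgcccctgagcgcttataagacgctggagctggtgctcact
Car9 (chr4:43506926-43507025, + strand): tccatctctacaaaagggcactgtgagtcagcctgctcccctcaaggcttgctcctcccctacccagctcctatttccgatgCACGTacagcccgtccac

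The 2 cores of Slc16a3 began 27 and 14 bases before the start, and those of Slc2a1 61 and 36 bases before it. In Adm they began 90 and 54 bases before the start, in Mxi1 66, in Pdk1 78 and in Car9 18; a further match in Pdk1 began 2 bases before the start and runs past it, so it is not capitalised. Mxi1 has further annotated starts, as does Pdk1; the lines show the start whose preceding 100 bases held a match, and for Mxi1 the upstream of 2 such starts. In Egln3 the match began 229 bases before the start. For Vegfa, 1 of 2 windows held matches, which began 218 and 211 bases before the start. No binding was measured in these samples, and a match is only a sequence match.

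The values are 1-colour array intensities with a median of 30 on each array. The 95th percentile of 663 olfactory receptor probes, taken here as the background level, lay between 50.5 and 57.6. Ecrg4 itself read 1.4 and 1.3 on the homozygous arrays, 345.5 and 373.9 on the heterozygous arrays and 112.9 and 154.9 on the wild-type arrays. The homozygous label thus matched a probe at background, while the heterozygous arrays read above the wild-type arrays, so directions between those labels refer to the arrays as labelled. Differences were tested with limma over 20434 probes, with Benjamini-Hochberg adjustment over all of them and a threshold of 0.05. Each ± is the standard error from that fit (n = 2 arrays per label), and the small number of arrays is what limits precision.

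The HIF-induced genes were lower in the homozygous arrays in 7 of 9 cases, and in each of these 7 both homozygous arrays lay below all 4 other arrays. The exceptions were Adm, which lay above all 4, and Car9, which overlapped them. Among all tested probes 13.2% lay wholly below the other 4 arrays in this way and 16.2% wholly above. The genes were chosen with earlier results known, so the comparisons with all probes describe that list and are not independent support. The members' median log2 fold change was -1.07 for homozygous minus wild type and -1.17 for homozygous minus heterozygous, against 0.02 and 0.04 over all tested probes. Few single genes passed the test. Between homozygous and wild type 1 of 9 members fell, Ndrg1, and 0 rose; the test called 0.92% of all probes, 0.489% lower and 0.431% higher. Between homozygous and heterozygous Ndrg1 and Mxi1 fell, 2 of 9, and 0 rose; the test called 2.69% of all probes, 1.43% lower and 1.26% higher. The F test over the 3 labels called 1 member, Ndrg1, and 2.26% of all probes. In bulk cultures fewer cells of a type and less RNA per cell cannot be told apart.

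**Figure D1:**
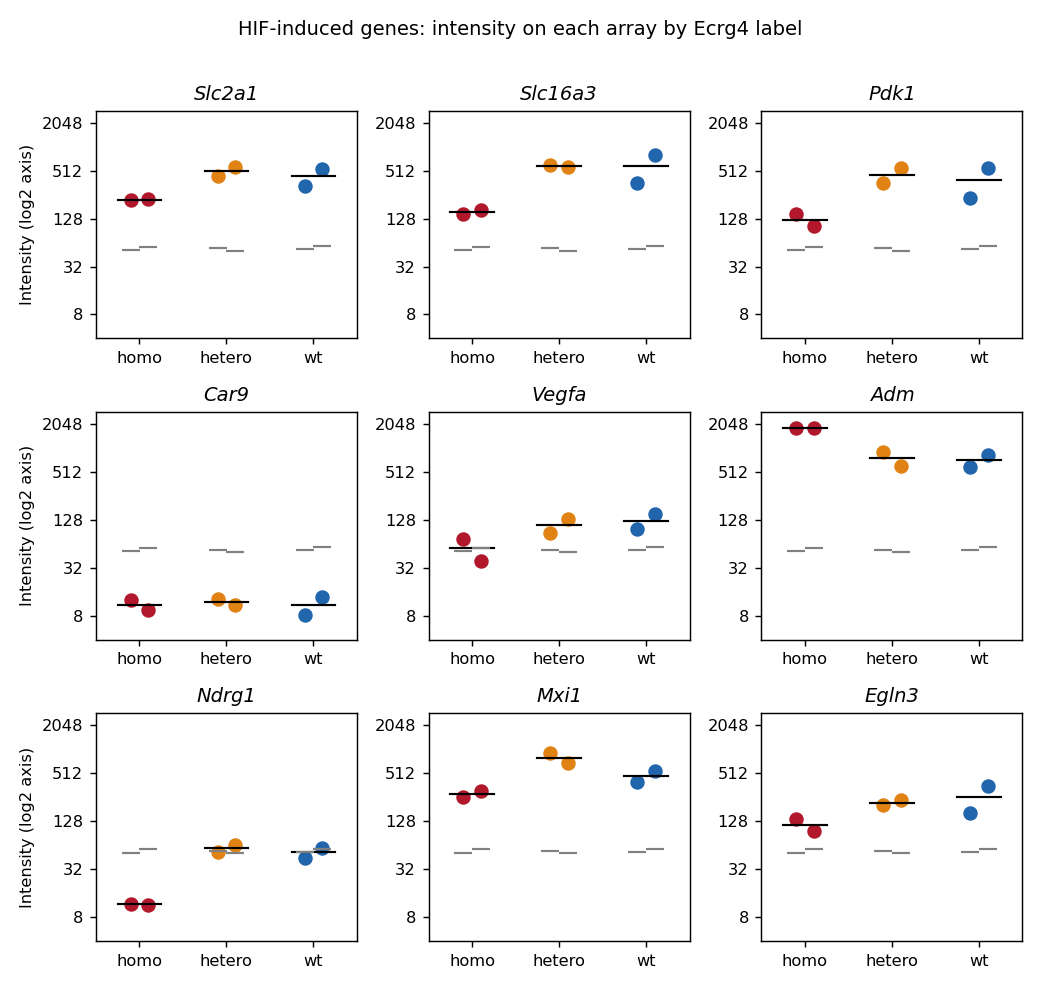
Intensity (log2 axis) of the 9 measured HIF-induced genes on each array, in columns for the homozygous (homo), heterozygous (hetero) and wild-type (wt) labels. Points are arrays, black bars are means, and grey dashes are the olfactory receptor 95th percentile of that array. For Slc2a1, Slc16a3, Pdk1, Vegfa, Ndrg1, Mxi1 and Egln3 both homozygous points lie below the other 4, and for Adm both lie above.

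Of the genes that handle glucose and its products, Slc2a1, Slc16a3 and Pdk1 were lowest on the homozygous arrays, and none passed the test. Slc2a1, the main glucose importer of many cell types, read 217.0 and 226.9 in the homozygous arrays, 433.6 and 572.9 in the heterozygous pair and 332.8 and 532.5 in the wild-type arrays. The homozygous arrays were below every other array and close to each other. The log2 fold change was -0.92 ± 0.26 against wild type (adjusted p = 0.155) and -1.17 ± 0.26 against heterozygous (adjusted p = 0.0842). Against wild type it was -0.58 when wild-type array 2 was left out. Slc16a3, the lactate exporter MCT4, read 147.6 and 165.6 in the homozygous arrays, 595.9 and 570.8 in the heterozygous pair, and 358.7 and 800.5 in the wild-type arrays. The wild-type arrays bracketed the heterozygous ones, and all 4 were above the homozygous arrays. Its change was -1.78 ± 0.36 against wild type (adjusted p = 0.0861) and -1.90 ± 0.36 against heterozygous (adjusted p = 0.0545). Leaving out wild-type array 1 brought the difference against wild type past the threshold (-2.36, adjusted p = 0.0375), and leaving out wild-type array 2 gave -1.20.

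Pdk1, the kinase that switches off pyruvate dehydrogenase and so keeps pyruvate from the citric acid cycle, read 145.6 and 102.1 in the homozygous arrays. It read 362.4 and 549.0 in the heterozygous arrays and 233.7 and 557.5 in the wild-type arrays. Its labels did not overlap between homozygous and the rest, but the arrays of the same label differed widely. The change was -1.57 ± 0.44 against wild type (adjusted p = 0.152) and -1.87 ± 0.44 against heterozygous (adjusted p = 0.0941). Against wild type it was -0.94 when wild-type array 2 was left out. When only the homozygous and heterozygous arrays were fitted, the estimate of the spread alone changed. Slc16a3 (adjusted p = 0.0133), Pdk1 (0.0462) and Slc2a1 (0.0470) then passed the threshold in that comparison. None of them did with blank cells filled or with the replicate number as a block. With an array left out their changes there ranged between -1.98 and -1.82, -2.17 and -1.57, and -1.37 and -0.97, in that order. Car9, the cell surface carbonic anhydrase that is among the most hypoxia-responsive genes in tumours, read 12.6 and 9.3 in the homozygous arrays and between 8.1 and 13.9 on the other 4. All 6 values lay under the olfactory receptor level, so its fitted difference is not given a direction.

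The 2 secreted signals differed in the sign of their values, and neither passed the test. Vegfa, the vascular endothelial growth factor, read 72.9 and 39.4 in the homozygous arrays, 87.5 and 131.1 in the heterozygous pair and 97.8 and 152.9 in the wild-type arrays. Homozygous array 2 lay under its background level of 56.5, and the homozygous pair differed more for Vegfa than for any other member. The change was -1.19 ± 0.38 against wild type (adjusted p = 0.179) and -0.999 ± 0.377 against heterozygous (adjusted p = 0.239). When homozygous array 2 was left out these were -0.75 and -0.56. Adm, which encodes adrenomedullin, a peptide that widens vessels, read 1838.6 and 1835.2 in the homozygous arrays, 910.7 and 599.3 in the heterozygous pair and 584.0 and 845.0 in the wild-type arrays. The homozygous arrays were nearly equal and above every other array. The difference was 1.39 ± 0.27 against wild type, 2.61-fold with a 95% interval of 1.67 to 4.08 (adjusted p = 0.0773), and 1.31 ± 0.27 against heterozygous (adjusted p = 0.0637). Over the alternative settings the adjusted p of Adm ranged between 0.00943 and 0.366 against wild type, with the sign kept throughout.

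Ndrg1, a stress-response gene linked to differentiation and to myelin maintenance in nerves, read 11.7 and 11.4 in the homozygous arrays. It read 52.6 and 64.2 in the heterozygous arrays and 44.6 and 59.1 in the wild-type arrays. The homozygous arrays were low and nearly equal, and the other 4 lay around the background level, with only 1 array of each label above its own. Ndrg1 fell by 2.15 ± 0.20 on the log2 scale against wild type (adjusted p = 0.0151) and by 2.33 ± 0.20 against heterozygous (adjusted p = 0.00654). Its probe is therefore a call on dim values. With the homozygous arrays set at their background level, no bound above 1 could be given against wild type. Against heterozygous the ratio was then 1.08, but heterozygous array 1 lay under its own background level. No least decrease is therefore given in either comparison. The call against wild type ended without homozygous array 1 (adjusted p = 0.151) or 2 (0.163). That against heterozygous ended without heterozygous array 2 (0.0503) or homozygous array 1 (0.0738) or 2 (0.0837). With 32 added to each value before taking logs, the changes were -0.94 and -1.05.

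Mxi1, a MAX-binding repressor that opposes MYC, was the member that differed most between the heterozygous and wild-type arrays. It read 255.3 and 302.5 in the homozygous arrays, 917.4 and 679.6 in the heterozygous pair and 396.6 and 549.7 in the wild-type arrays. No label overlapped another, and the order ran homozygous, wild type, heterozygous. Mxi1 fell by 1.51 ± 0.24 against heterozygous (adjusted p = 0.0344), and its difference against wild type was -0.75 ± 0.24 (adjusted p = 0.179). Between heterozygous and wild type it was 0.76 ± 0.24, a 1.69-fold difference with a 95% interval of 1.14 to 2.52 (adjusted p = 0.284). The call against heterozygous ended without heterozygous array 1 (0.136) or 2 (0.0967) and without homozygous array 1 (0.219) or 2 (0.186). It also ended with blank cells filled (0.0566).

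Egln3, a prolyl hydroxylase that marks HIF alpha subunits and is itself induced by HIF, read 135.8 and 95.8 in the homozygous arrays, 202.1 and 234.4 in the heterozygous pair and 160.8 and 356.0 in the wild-type arrays. The lowest wild-type value lay only a little above the higher homozygous one. The change was -1.07 ± 0.38 against wild type (adjusted p = 0.216) and -0.93 ± 0.38 against heterozygous (adjusted p = 0.275). Against wild type it was -1.64 when wild-type array 1 was left out and -0.50 when array 2 was.

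**Figure D2:**
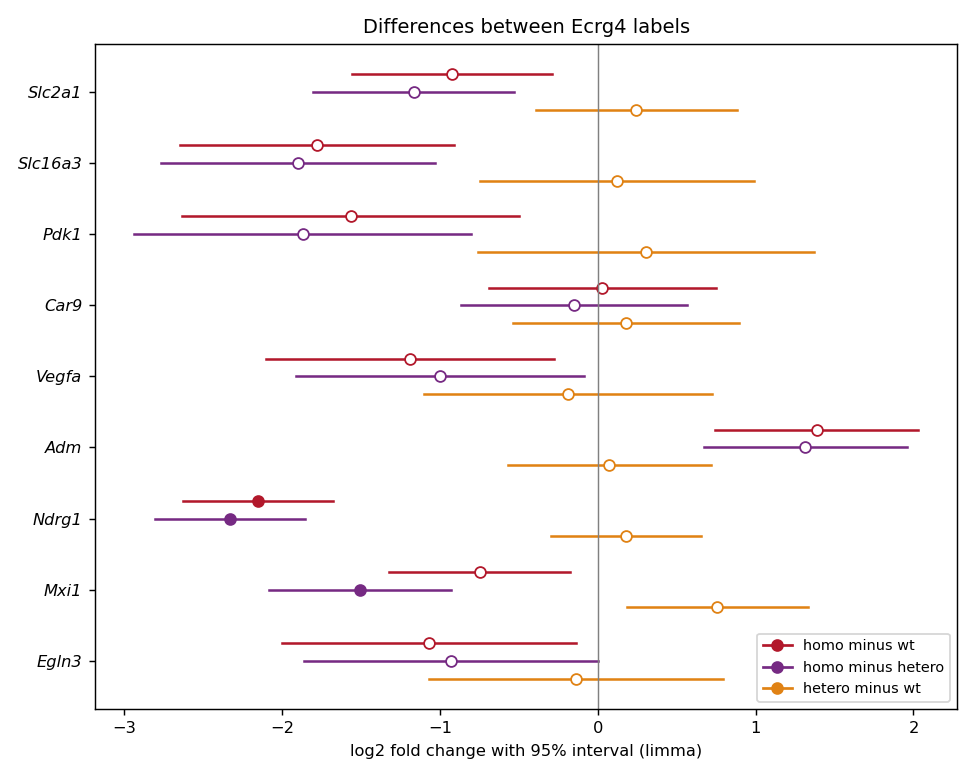
Log2 fold changes of the 9 measured genes with 95% intervals from limma, in the comparisons of homozygous with wild type, homozygous with heterozygous, and heterozygous with wild type. Filled points had an adjusted p under 0.05: Ndrg1 in both comparisons of the homozygous arrays and Mxi1 against heterozygous. The intervals of heterozygous minus wild type include 0 for every gene but Mxi1.

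Between heterozygous and wild type no member passed the test under limma or any alternative run, and 1 had an unadjusted p under 0.05 (Mxi1), as did 13.5% of all probes. Of all probes 0.749% were called, 0.411% higher and 0.338% lower in heterozygous. The members' median log2 fold change was 0.18, against -0.01 over all tested probes. The intervals were wide. For Slc16a3 the fold of heterozygous over wild type lay between 0.60 and 1.99, and for Pdk1 between 0.59 and 2.59. The members' median changed sign with the wild-type array used: without array 1 it was -0.21, and without array 2 it was 0.57.

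The wild-type arrays differed from each other in these genes. All 9 members were higher on wild-type array 2 than on array 1, where 64% of all tested probes were higher. The lowest of the 9 differences, 0.41 on the log2 scale, exceeded the upper quartile of all probes, 0.39. Of the members, Car9 lay under background on both arrays and Ndrg1 on array 1. Array 2 was also higher in 16 of 16 glycolytic enzyme genes and 27 of 30 further HIF-induced genes described below. It was higher in 8 of 14 oxygen-sensing genes and 22 of 36 relatives of the members. Array 2 read 2.39-fold above array 1 for Pdk1, 2.23-fold for Slc16a3 and 2.21-fold for Egln3. More than 2-fold differences of this direction were found in 3 of 9 members and in 3.42% of all probes. In the heterozygous pair 5 of 9 members were higher on array 2, where 36% of all probes were, and in the homozygous pair 3 of 9, where 58.2% of all probes were. Leaving out wild-type array 1 put the members' median change between homozygous and wild type at -1.51, and leaving out array 2 put it at -0.58.

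**Figure D3:**
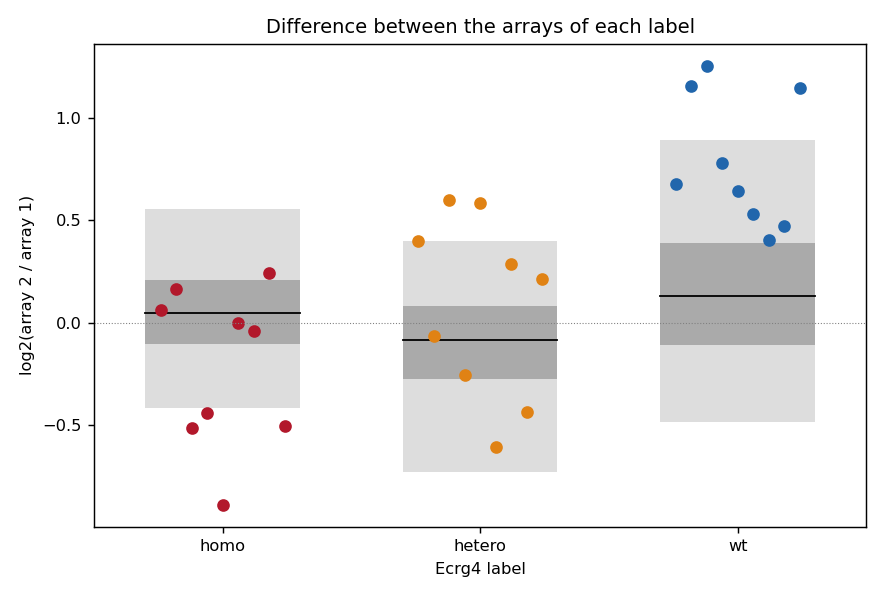
Log2 ratio of array 2 over array 1 within the homozygous (homo), heterozygous (hetero) and wild-type (wt) labels. Coloured points are the 9 HIF-induced genes, dark and light grey bands span the middle 50% and 90% of 20434 tested probes, and the black line is their median. All 9 wild-type points lie above the dark band, while those of the other labels fall on both sides of 0.

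Further HIF-induced genes, other than the glycolytic enzyme genes given below, were also mostly lower in level on the homozygous arrays. Of 35 listed, 30 were tested, and their median log2 fold change was -0.52 for homozygous minus wild type and -0.61 for homozygous minus heterozygous. Leaving out wild-type array 1 put the median against wild type at -0.82, and leaving out array 2 at -0.30. Of the 30, 20 exceeded the background level on all 6 arrays and 5 on none. Both homozygous arrays lay below the other 4 in 15 of 30 genes, where 13.2% of all tested probes did. The 15 include Loxl2, under background on every array. They also include Ankrd37, P4ha2 and Plod2, under background on both homozygous arrays. The homozygous arrays lay above the other 4 in 4 of 30 (Igfbp3, Hmox1, Pfkfb3 and Pfkfb4), where 16.2% of all tested probes did. Pfkfb4 lay under background on every array. Stc1, the secreted hormone stanniocalcin, fell against wild type (-1.12 ± 0.16, adjusted p = 0.0451), 1 of 30, where 0.489% of all probes were called lower. It read 52.2 and 56.1 in the homozygous arrays, 82.5 and 87.0 in the heterozygous pair and 107.5 and 128.1 in the wild-type arrays. Its homozygous values were at background: array 1 lay just above its level of 51.3 and array 2 just under its level of 56.5. Against heterozygous, 1 of 30 fell, the collagen lysyl hydroxylase gene Plod1 (-0.87 ± 0.16, adjusted p = 0.0493). In the same comparison 1 of 30 rose, Igfbp3, which binds insulin-like growth factors (1.25 ± 0.17, adjusted p = 0.0248). There 1.43% of all probes were called lower and 1.26% higher. Igfbp3 read 2317.5 and 2392.8 in the homozygous arrays, 1063.1 and 922.0 in the heterozygous pair and 1180.0 and 951.2 in the wild-type arrays, a pattern like that of Adm. All 3 calls rest on few arrays. That of Stc1 ended when any array was left out (adjusted p between 0.0634 and 0.295). Those of Plod1 (0.137 to 0.287) and Igfbp3 (0.0890 to 0.197) ended when any heterozygous or homozygous array was left out.

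The oxygen-sensing genes gave no call. Of 14 genes for HIF subunits, hydroxylases and the von Hippel-Lindau complex, all were tested and none passed in any comparison (limma). At an unadjusted p under 0.05 there were 2 between homozygous and wild type, 0 between heterozygous and wild type and 2 between homozygous and heterozygous, against 19.0%, 13.5% and 18.2% of all tested probes in the same order. Their median was 0.05 against wild type and 0.11 against heterozygous. Hif1a, the alpha subunit regulated by oxygen mainly through its protein, read 262.5 and 306.1 in the homozygous arrays, 245.2 and 252.6 in the heterozygous pair and 262.3 and 285.8 in the wild-type arrays. Its fitted change against wild type was 0.05 on the log2 scale (adjusted p = 0.889). Epas1, Hif3a and Arnt lay under the background level on every array, and Arnt2 on 5 of 6. Egln1, the main oxygen-sensing hydroxylase and itself a HIF target, read 392.8 and 333.3 in the homozygous arrays, 494.8 and 656.8 in the heterozygous pair and 446.1 and 795.2 in the wild-type arrays. The homozygous arrays were again lowest, without a call (-0.72 against wild type, adjusted p = 0.271). Egln2, another hydroxylase of the family, read between 322.2 and 409.5 and overlapped between labels.

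**Figure D4:**
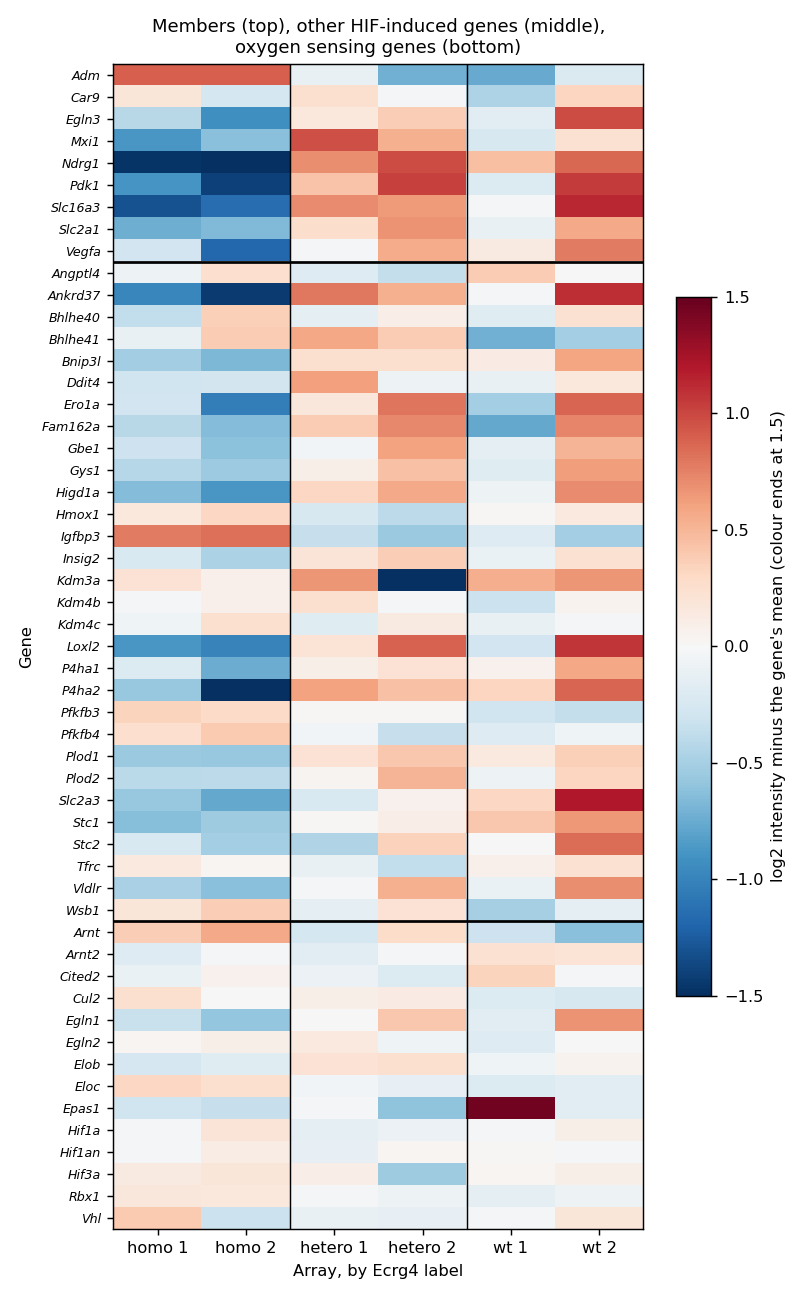
Log2 intensity on each array minus the gene's mean over the 6 arrays, for the 9 measured members (top), 30 other HIF-induced genes (middle) and 14 HIF subunit and oxygen-sensing genes (bottom). Columns run homozygous (homo), heterozygous (hetero) and wild type (wt), and blue is lower. The homozygous columns are blue for most genes of the top and middle blocks. Higher in both homozygous columns than in all other columns are Adm (top) and Igfbp3, Hmox1, Pfkfb3 and Pfkfb4 (middle). Pfkfb4 lay under the background level on every array. The bottom block shows little colour shared within a label.

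The 16 glycolytic enzyme genes, targets of the same factors, had medians of -0.56 against wild type and -0.61 against heterozygous. In 7 of 16 both homozygous arrays lay below the other 4, where 13.2% of all tested probes did. The median against wild type was -0.91 when wild-type array 1 was left out and -0.40 when array 2 was. Against heterozygous 1 of 16 was called lower, where 1.43% of all probes were. Tpi1, triose phosphate isomerase, fell against heterozygous (-1.17 ± 0.21, adjusted p = 0.0485), a call that ended when any heterozygous or homozygous array was left out (0.1504 to 0.294). The comparisons of homozygous with wild type and with heterozygous share the homozygous arrays, so they are not independent of each other.

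Relatives of the members, 36 of 38 tested, had medians of -0.11 against wild type and -0.10 against heterozygous. In 7 of 36 both homozygous arrays lay below the other 4, where 13.2% of all tested probes did. The lists overlap: Bnip3l and Slc2a3 are also among the further HIF-induced genes, and Egln1 and Egln2 among the oxygen-sensing genes. Bnip3l, Slc2a3 and Egln1 are among those 7. Of the 36, 1 rose and 0 fell between homozygous and wild type. Between heterozygous and wild type 1 of 36 rose and 1 fell, and so it was between homozygous and heterozygous. Over all probes the calls were 0.92%, 0.749% and 2.69% in these comparisons. Car8, a carbonic anhydrase-related protein without the enzyme activity, read 588.0 and 507.5 in the homozygous arrays, 86.6 and 107.5 in the heterozygous pair and 277.9 and 272.1 in the wild-type arrays. It rose against heterozygous (2.501 ± 0.174, adjusted p = 0.00389) and fell in heterozygous against wild type (-1.51 ± 0.17, adjusted p = 0.0247). The call against heterozygous ended without homozygous array 1 (0.0610) or 2 (0.0542), and that between heterozygous and wild type ended when any array was left out (0.0507 to 0.127). Ndrg2, an astrocyte-enriched relative of Ndrg1, read 159.1 and 69.2 in the homozygous arrays and 669.2 and 471.9 in the heterozygous arrays (136.1 and 215.4 in wild type), and fell by 2.42 ± 0.44 (adjusted p = 0.0483). That call ended when any array was left out (0.0639 to 0.203). The call for the glucose transporter gene Slc2a10, higher in both other labels than in wild type, rests on values under 9 on every array, far below background. Bnip3l, the relative of Bnip3 that also directs mitochondria to autophagy, read 481.7 and 433.0 in the homozygous arrays, 817.4 and 820.6 in the heterozygous pair and 756.0 and 1041.4 in the wild-type arrays, without a call (-0.96 ± 0.19 against wild type, adjusted p = 0.0864). Slc2a3, the neuronal glucose transporter, read 165.3 and 144.6 in the homozygous arrays, 210.3 and 256.2 in the heterozygous pair and 303.9 and 564.1 in the wild-type arrays.

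The receptors of VEGF-A and adrenomedullin were mostly at background. Of 7 listed, 6 were tested, 4 lay under the background level on every array and none passed in any comparison (limma; 2, 2 and 1 at an unadjusted p under 0.05 between homozygous and wild type, heterozygous and wild type, and homozygous and heterozygous, where 19.0%, 13.5% and 18.2% of all probes had one). Ramp2, which makes the calcitonin-like receptor respond to adrenomedullin, was the 1 gene above background on all 6 arrays, between 63.1 and 117.6, while its partner Calcrl read between 19.2 and 33.0.

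As a description of likeness, each member's log2 profile over the 6 arrays was set against the mean of the other 8. Pearson's r was 0.98 for Pdk1, 0.96 for Slc16a3 and Slc2a1, 0.94 for Egln3, 0.89 for Ndrg1, 0.86 for Vegfa, 0.82 for Mxi1, 0.47 for Car9 and -0.79 for Adm. The points share the genotype labels and the wild-type spread. Outside the members, among 363 named probes whose mean over the 6 arrays exceeded the background level and whose values varied, the closest to the members' mean were Tuba4a, Galk1, Lgr6, Higd1a and Hint3, with r between 0.991 and 0.998. Tuba4a and Lgr6 lay under the background level on both homozygous arrays, and Lgr6 also on wild-type array 1, so the low end of their profiles is background signal. Higd1a, a mitochondrial protein induced by HIF, read 4104.5 and 3520.1 in the homozygous arrays, 7945.3 and 9543.2 in the heterozygous pair and 6089.7 and 10540.1 in the wild-type arrays. Closest to Ndrg1 were Lamb2, Crocc and Clybl (r between 0.992 and 0.997), and closest to Adm were Id4, St6gal1 and Calhm4 (r between 0.956 and 0.974).

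Markers of cell types gave the background of these cultures. Of 12 tested stem and progenitor markers 10 exceeded the background level on all 6 arrays. The summed intensity of the 12 lay between 78959 and 80207 in the homozygous, 66847 and 69973 in the heterozygous pair and 71634 and 73615 in the wild-type arrays. Most of it came from Fabp7 (37399.8 to 46801.5) and Vim (17331.9 to 23583.8). Of these markers 1 was called, Ccnd2, higher in homozygous than in heterozygous (1.37 ± 0.14, adjusted p = 0.0113), where 2.69% of all probes were called. That call ended when any heterozygous or homozygous array was left out (0.0715 to 0.114). Astrocyte markers, 6 tested with 2 above background throughout, summed to 2188 and 2007 in the homozygous, 3402 and 3356 in the heterozygous pair and 1553 and 2137 in the wild-type arrays. Most of each sum was 1 gene, Gja1. It read 1940.3 and 1825.8 in the homozygous, 2917.2 and 2925.3 in the heterozygous pair and 1361.3 and 1860.2 in the wild-type arrays. Gfap lay under background on every array. In that list Aqp4 was called, lower in homozygous (14.3 and 8.0) than in heterozygous (66.8 and 45.5; adjusted p = 0.0333), but it exceeded the background level on 1 array only, so no fold is given. Its call ended when any heterozygous or homozygous array was left out (0.0926 to 0.195). The 5 neuronal, 2 endothelial, 7 pericyte and fibroblast and 2 erythroid markers tested lay under background on all arrays, as did 3 of 4 microglial markers. P2ry12 was called between homozygous and the other labels, and Cx3cr1 between heterozygous and wild type, on values under 13 on every array, so neither is given a fold. Of 4 tested oligodendrocyte lineage markers Olig2 was above background throughout, between 2576 and 4183. The part of these marker differences in the results above was not tested.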

How the data were processed

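The deposited table holds the authors' 1-colour intensity values, linear and apparently scaled to one median per array. Background correction, scanner and the rule for blank cells were not given in the sources used here. Per the labels' protocols, RNeasy-purified total RNA was amplified as amino allyl aRNA for coupling to a dye, yet biotin is also named as the label. Intensities were log2-transformed without a pseudocount. Of 23466 probes, the 20434 without a blank entered a linear model in limma 3.58.1 under R 4.3.3 (1 coefficient per genotype, eBayes moderation, 3 residual degrees of freedom, prior worth 3.27), two-sided, adjusted by the Benjamini-Hochberg method over all tested probes. Symbols came from the platform annotation and were updated through RefSeq synonyms (12620 current, 3943 replaced, 59 ambiguous and 3 unmatched kept, 6841 unnamed). A gene with several probes was read from the brightest.

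Named genes were all members, Ecrg4, the Egln, Hif1a and Arnt genes, up to 4 called genes of each list and comparison, and the closest profiles (log2 SD of at least 0.5). Bnip3l, Slc2a3, Calcrl, Ramp2, Gfap and other uncalled genes were named after their values were seen. Members, lists and the olfactory receptor level were chosen with earlier results of these data known. The 14 alternatives changed the scaling, pseudocount, prior, filter, blanks, arrays fitted or replicate block, or left out an array. On simulated arrays with 20434 probes, the homozygous to wild-type fit recovered 92% of changes of 3 log2 units, 74% of 2, 2% of 1 and 0% of 0.5. The simulation changed 50 probes of each size and drew independent normal noise with variances from the fitted prior. Recovery depends on how many probes change and on the noise, so these shares describe the simulation and not the data.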

Additional observations from a re-analysis of the deposited data

How the results depend on the processing

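Of 372 repeats of the members' comparisons over 14 alternatives, 315 kept direction and side of the threshold, 11 lost a call, 31 gained one and 15 changed sign, none of these 15 a call. The repeats are not all separate fits. In each comparison, leaving out an array of the third label gave the same fit as fitting only the arrays compared. Between homozygous and either other label, the 8 measured members other than Car9 kept their sign under each alternative run. The brightness filter left Ndrg1 and Car9 without a value. Precision is limited by 2 arrays per label and, for Ndrg1, Vegfa and Car9, by signal near or under background. The causes of the changes below were not tested.

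Probes called between homozygous and wild type (188) came to 328 with quantile normalization, 314 with median centring, 929 with 32 added before logs, 1094 with a trended robust prior, 751 among bright probes, 88 with blanks filled, 59 with only the arrays compared, and 1 to 224 with an array left out; of the 224 called without wild-type array 2, 169 were higher and 55 lower, against 88 and 100 with all arrays. Between heterozygous and wild type (153) they came to 400 with the trended prior, 40 with only the arrays compared and 18 to 340 with an array left out. Between homozygous and heterozygous (549) they came to 1139 with 32 added, 1357 with the trended prior, 844 among bright probes, 320 with blanks filled and 6 to 680 with an array left out.

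Members called between homozygous and wild type (1) were 2 with quantile normalization, 3 with median centring, 2 with 32 added, 4 with the trended prior, 2 among bright probes and 0 to 2 with an array left out. Between homozygous and heterozygous (2) they were 4 with quantile normalization, 4 with median centring, 5 with the trended prior, 5 among bright probes, 1 with blanks filled, 5 with only the arrays compared and 0 to 5 with an array left out. The F test (1) called 4, 4, 2, 5 and 5 members with quantile normalization, median centring, 32 added, the trended prior and bright probes, and 0 to 2 with an array left out.

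With the replicate number as a block, 47 probes were called between homozygous and wild type, 51 between heterozygous and wild type and 244 between homozygous and heterozygous, where 1 member was called, Ndrg1, Mxi1 having an adjusted p of 0.0797. The block also ended the limma calls of Stc1 (0.0975), Plod1 (0.0933), Igfbp3 (0.0537), Tpi1 (0.101), Ndrg2 (0.0902), Slc2a10 (0.0726 in homozygous, 0.0637 in heterozygous) Aqp4 (0.0722), P2ry12 (0.0724 against wild type, 0.0586 against heterozygous) and, between heterozygous and wild type, Car8 (0.0795), Cx3cr1 (0.0795) and Ecrg4 (0.0860). Same-numbered arrays did not deviate together (r of 0.02, 0.01 and -0.08 across probes), so the numbers were not taken to pair the arrays.

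Log2 fold changes that changed sign, none of them a call, were as follows. Car9, dim throughout, gave -0.029 with quantile normalization and -0.026 with median centring between homozygous and wild type, and -0.36 to 0.42 there with an array left out. Between homozygous and heterozygous it gave -0.37 to 0.070. Between heterozygous and wild type, leaving out an array gave -0.024 to 0.38 for Ndrg1, -0.46 to 0.70 for Slc16a3, -0.32 to 0.93 for Pdk1, -0.23 to 0.37 for Adm, -0.71 to 0.44 for Egln3, -0.51 to 0.13 for Vegfa, -0.096 to 0.58 for Slc2a1 and -0.21 to 0.57 for Car9.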
